A study of Mus musculus with 10 samples.

Results

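Ccl2, Ccl7, Ccl12, Ccl8 and Ccl5 are 5 CC chemokines, chosen by name from the 28808 genes counted in single cells of mouse kidney cortex before and after injury. Their transcripts were followed through every cell class of all 10 libraries to ask which cells supplied each chemokine on each day. The libraries came from kidneys of mice aged 4 weeks: 1 from normal kidneys (control), 1 each from injured kidneys on days 1, 2 and 4, and 2 each from injured kidneys on days 7, 11 and 14. The labels name the injury only by its day and give neither its kind nor the sex, strain or number of the animals. Single cells were caught in droplets with barcoded beads (Drop-seq), and each transcript was counted once by its unique molecular identifier (UMI).

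CC chemokines are small secreted proteins that draw leukocytes along a concentration gradient through G protein-coupled receptors. Ccl2, Ccl7 and Ccl12 are ligands of Ccr2, which brings inflammatory monocytes out of the bone marrow and into injured tissue. Mouse Ccl8 is a ligand of Ccr8, and Ccl5 is a ligand of Ccr1 made by activated T cells, NK cells and inflamed epithelium. In the injured kidney, damaged tubules and the phagocytes that enter are both known sources of such signals.

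The 5 genes lie on mouse chromosome 11, with Ccl2, Ccl7, Ccl12 and Ccl8 close together and Ccl5 apart from them. In the GRCm38 annotation (GENCODE M21), Ccl2 spans chr11:82035571-82037453, Ccl7 chr11:82045712-82047525, Ccl12 chr11:82101845-82103400 and Ccl8 chr11:82115185-82116799, all on the plus strand, and Ccl5 spans chr11:83525778-83530518 on the minus strand. Each has 3 exons in its first listed transcript. Their transcripts share no run longer than 23 bases (Ccl2 with Ccl7), and none longer than 13 bases in the last 400 bases, where these 3′ tags fall. The antisense gene Gm17268 overlaps Ccl2 and has no row in the count tables, and whether the counting used strand is not given in the sources used here.

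RefSeq promoters of GRCm38.p6 were at hand for Ccl8 and Ccl12, neighbours on the chromosome whose levels over the days parted in these data. The 250 bases before each start are shown 5′ to 3′ on the plus strand (chr11:82114935-82115184 for Ccl8 and chr11:82101595-82101844 for Ccl12), with motif matches in capitals.
Ccl8: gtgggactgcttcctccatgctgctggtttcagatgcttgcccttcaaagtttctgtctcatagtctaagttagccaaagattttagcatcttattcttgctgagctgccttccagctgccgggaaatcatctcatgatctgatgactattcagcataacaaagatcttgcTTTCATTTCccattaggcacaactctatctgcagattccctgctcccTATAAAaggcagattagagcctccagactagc
Ccl12: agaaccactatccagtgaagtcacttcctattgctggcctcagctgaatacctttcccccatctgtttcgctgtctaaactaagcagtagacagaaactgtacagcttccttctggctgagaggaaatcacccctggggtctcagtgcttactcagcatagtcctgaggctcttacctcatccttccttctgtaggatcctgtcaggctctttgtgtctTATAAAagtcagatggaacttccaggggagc
In both, the capitals nearest the start are a TATA box (TATAAA, both strands searched), which lies at -32 to -27 in Ccl8 and -31 to -26 in Ccl12 and is found in 12.4% of the 32851 promoter windows. The other capitals in Ccl8 are a pair of interferon regulatory factor half-sites with 1 base between them (GAAANGAAA). This pair lies on the minus strand at -79 to -71 and is found in 2.68% of windows. No match to the same motif with 2 bases between its repeats (2.98% of windows), TGANTCA (6.75%), TTGCNNAA (9.56%) or the kappaB consensus (3.90%) was found in either window. The 2 windows were 56.9% identical over 283 aligned columns. These motifs were chosen after the levels were known, and a match is a description only.

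The tables held 64803 barcodes and 173806985 UMIs, and 50158 cells were used, 3390 to 6594 per library, with median depths of 1253.5 to 2664 UMIs per cell. Cells were classed by raw marker UMIs: 38 to 1438 mononuclear phagocytes, 1706 to 6098 tubule cells and 9 to 280 T and NK cells per library. Cells with markers of more than 1 class were set apart as mixed and made up 1.02% to 11.9% of a library, most on day 7. On day 4, mixed cells had a median of 4819.5 UMIs against 1820 in tubule cells, and 95.4% of them held at least as many tubule-marker UMIs as UMIs of the other class. Between libraries, 58 barcodes were shared. The 2 libraries of a day differed from each other by more than sampling noise (chi-square per degree of freedom of 14.2 to 27.2). Control and days 1, 2 and 4 have 1 library each and so no spread of their own; the labels do not say whether paired libraries came from separate animals, so p-values measure the spread between these libraries, which may be technical.

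**Figure D1:**
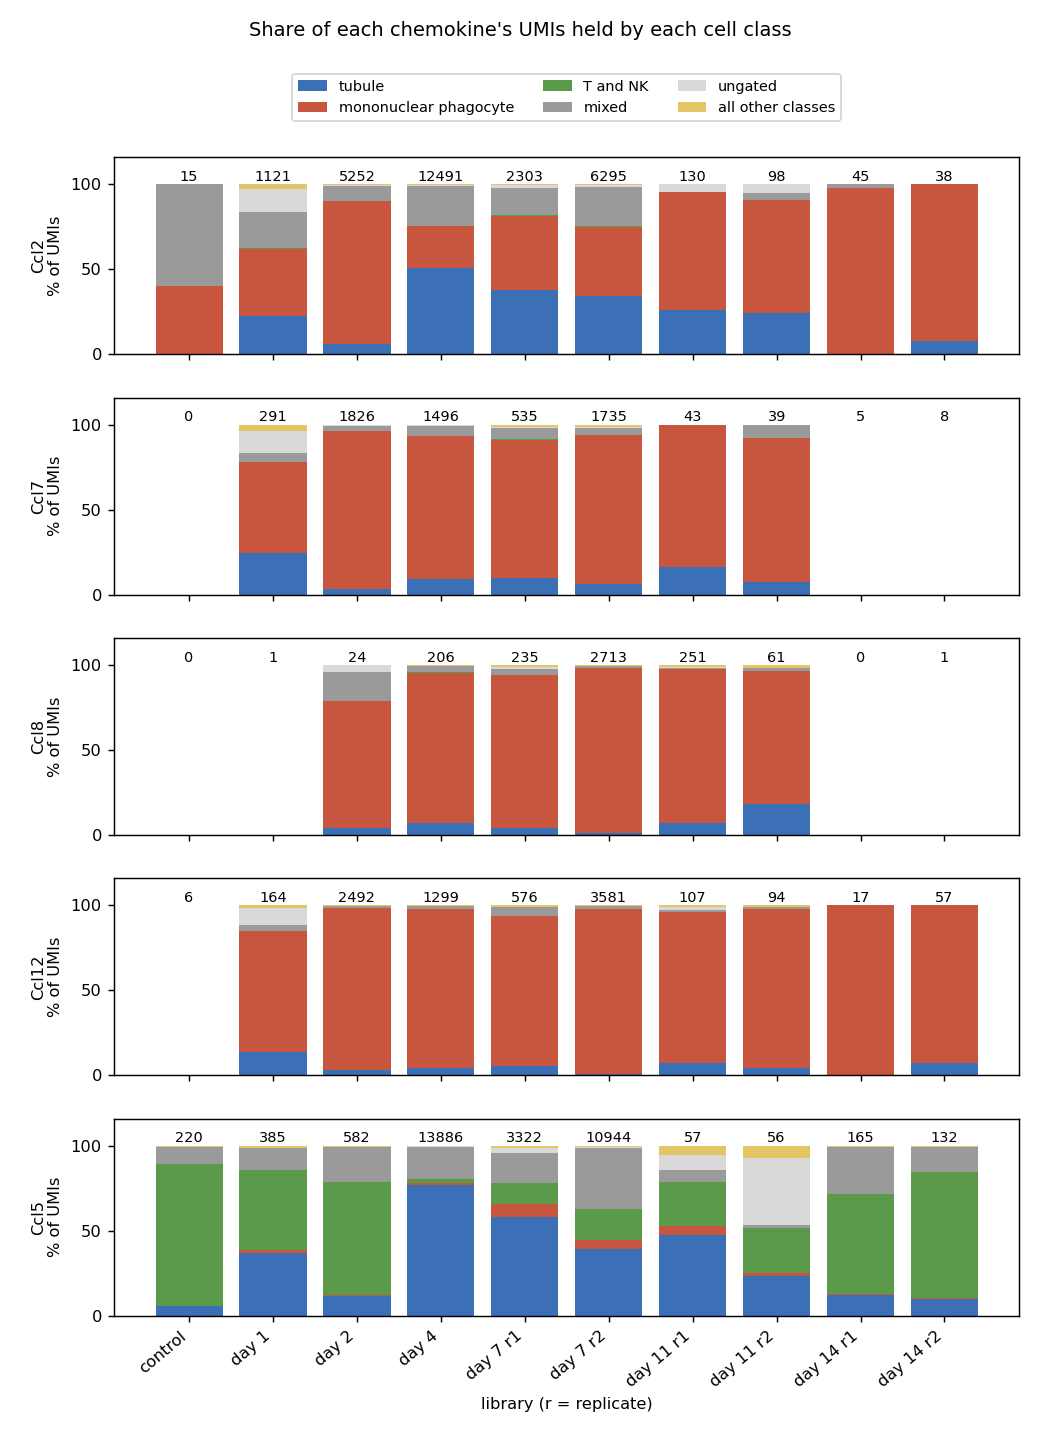
Share of each chemokine's UMIs (%, y axis) held by each cell class in each library (x axis), 1 panel per gene, with the library's total UMIs above each bar; libraries with under 10 UMIs of a gene have no bar. Phagocytes (red) hold most of Ccl7, Ccl8 and Ccl12 on every day drawn, while tubule cells (blue) hold 50.8% of Ccl2 and 76.7% of Ccl5 on day 4.

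Ccl2 was held mostly by phagocytes on day 2, and by tubule cells and phagocytes together on days 4 and 7. The libraries held 15 Ccl2 UMIs in control, 1121 on day 1, 5252 on day 2, 12491 on day 4, 2303 and 6295 on day 7, 130 and 98 on day 11, then 45 and 38 by day 14. On day 1 phagocytes held 39.5% of them, tubule cells 22.7% and mixed cells 21.1%. Phagocytes held 84.0% on day 2 (95% exact binomial interval 82.9 to 85.0), and tubule cells 6.07% (5.44 to 6.75). On day 4 the order was turned: tubule cells held 50.8% (49.9 to 51.7) and phagocytes 24.5% (23.7 to 25.3), with 23.8% in mixed cells. Of these mixed cells 77.4% had the phagocyte list highest among the non-tubular lists, so the phagocyte share depends on where they are placed. On day 7 the tubule share was 36.1% ± 2.2 and the phagocyte share 42.2% ± 2.30, with 19.7% ± 4.92 in mixed cells (SD, n = 2). These day 7 shares moved under other gates, as given below. On day 11 the share was 25.3% ± 1.18 for tubule and 67.8% ± 2.05 for phagocytes, and on day 14 phagocytes held 94.9% ± 4.01 (n = 2). Ungated cells held a further 13.6% on day 1. A share follows how many cells of a class were captured as well as their level, and the intervals cover counting error only.

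Per cell class, levels were compared as CPM, the counts scaled to a common total of the class's UMIs. In phagocytes, Ccl2 stood at 97.3 CPM in control, 3450 on day 1, 4559 on day 2, 2119 on day 4, 720 and 822 on day 7, 634 and 590 on day 11, then 919 and 457 by day 14. The control value rests on 6 UMIs in 1 of 45 phagocytes, and all 9 injured libraries lay above it. Tubule cells held no Ccl2 UMI in control, where 3 counts would be 0.126 CPM. They held 38.1 CPM on day 1, 33.6 on day 2, 439 on day 4, 260 and 317 on day 7, 3.82 and 2.69 on day 11, then 0 and 0.171 by day 14. The tubule level was thus highest on day 4, 2 days after the phagocyte level, with 1 library on each of those days.

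Within the tubule, Ccl2 came from few cells. On day 4, 21.0% of tubule cells had a Ccl2 UMI (9.88% after each cell was thinned to 500 UMIs), 140 of 4515 cells had at least 10, the highest cell held 434, and the top 10% of cells held 92.2% of the UMIs. On day 7 the thinned share was 7.56% and 7.34%. In phagocytes, the thinned share with Ccl2 was 51.9% on day 1, 62.2% on day 2, 43.5% on day 4, 21.7% and 24.8% on day 7, 12.6% and 12.5% on day 11, then 15.8% and 4% by day 14. In T and NK cells, which are not known as a main source of Ccl2, it was 7.27% on day 4 and 6.17% and 1.79% on day 7.

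**Figure D2:**
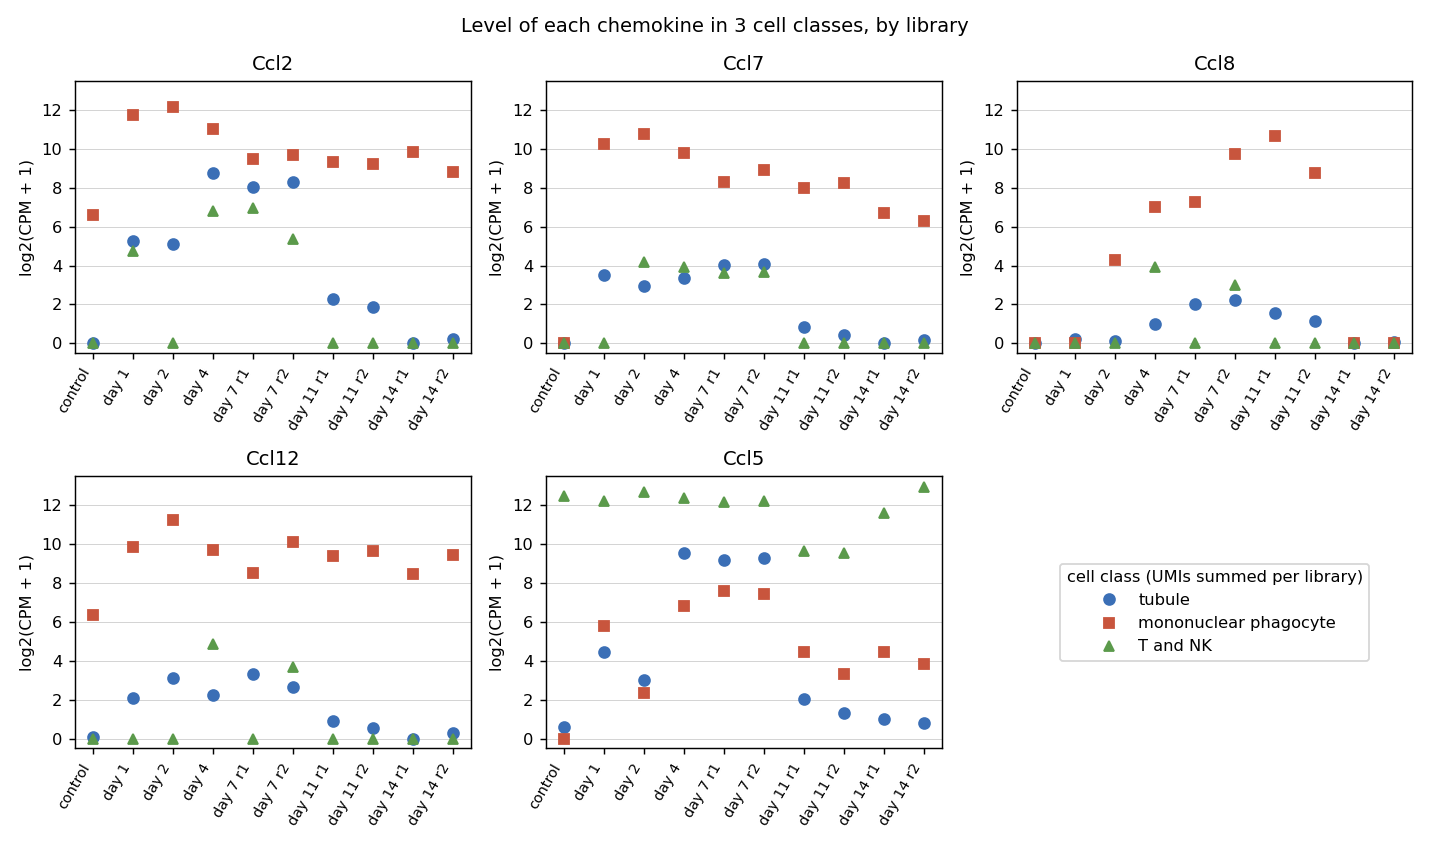
Level of each chemokine as log2(CPM + 1) (y axis) in tubule cells, mononuclear phagocytes and T and NK cells of each library (x axis); each point is the summed UMIs of 1 class in 1 library, with no error bar. Ccl2 and Ccl5 in tubule cells stand high on days 4 and 7 alone. Ccl8 in phagocytes stands above its earlier levels on days 4, 7 and 11 and at 0 on day 14. Of the classes drawn, Ccl5 is highest in T and NK cells in every library.

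RNA freed from broken cells can put UMIs of one class into another, so each level was set beside genes that phagocytes make and tubule cells should not (Tyrobp, Fcer1g and Lyz2, kept out of the gates). The tubule Ccl2 level was 20.7% of the phagocyte level on day 4, where the 3 genes together reached 0.854%. On day 7 it was 36.2% and 38.5%, beside 4.53% and 0.806%. On days 1 and 2 the tubule held 1.10% and 0.737% of the phagocyte level, beside 1.10% and 0.546% for the 3 genes. On day 2 the Ccl2 value lay above each of the 3 (0.641%, 0.516% and 0.535%), and 142 of the 319 tubule Ccl2 UMIs were in tubule cells with a UMI of Vcam1 (144 CPM, against 20.8 in the others). On day 1 these levels were 40.1 and 37.8 CPM. The part of free RNA in tubule Ccl2 of days 1 and 2 was not tested. On day 11 the values were 0.602% and 0.456%, beside 0.178% and 0.159%. Tubule Ccl7, Ccl8 and Ccl12 stayed at 5.02% of the phagocyte level or below from day 1 to day 11. On day 7 Ccl7 was at 5.02% and 3.31%, beside 4.53% and 0.806% for the 3 genes, and Ccl12 at 2.47% and 0.469%, below them in both libraries.

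**Figure D3:**
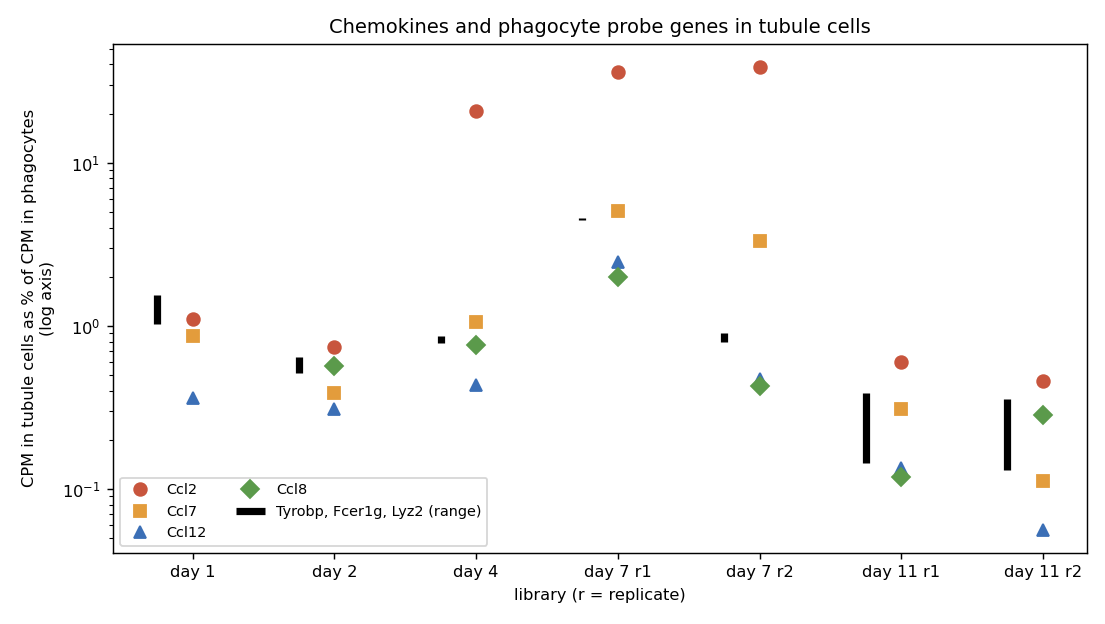
Level in tubule cells as a percentage of the level in phagocytes of the same library (y axis, log scale) for 4 chemokines, by library (x axis); black bars give the range of Tyrobp, Fcer1g and Lyz2. Ccl2 stands far above the bars on day 4 (20.7%) and day 7 (36.2% and 38.5%), while Ccl12 stays at 2.47% or below.

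Over the 9 injured libraries, phagocytes held more Ccl2, Ccl7 and Ccl12 than tubule cells of the same library. The difference was 6.26 on the log2 scale for Ccl2 (SE 1.11, adjusted p = 1.08e-04), 7.09 for Ccl7 (SE 0.53, adjusted p = 6.85e-09) and 8.70 for Ccl12 (SE 0.56, adjusted p = 1.28e-09; edgeR quasi-likelihood test with library as a block, Benjamini-Hochberg over all genes). When cells were not required to hold more phagocyte than tubule marker UMIs, the differences were 4.66, 5.31 and 6.94, all still called. With that requirement, each was higher in 9 of 9 libraries (exact sign-flip p = 0.0039, two-sided, the smallest that 9 libraries allow). For Ccl2 the mean difference over these libraries was 4.56 (SD 2.22, on log2(CPM + 10)). Its size changed with the day. Phagocytes held 4559 CPM against 33.6 in tubule cells on day 2, 2119 against 439 on day 4, and on average 771 against 289 on day 7. Of all 11277 genes tested, 58.4% were called (24.5% as higher), a share so high that a call alone says little of these 3. Ccl8 fell under the filter on low counts; it was higher in phagocytes in 6 of 9 libraries (exact sign-flip p = 0.0312). Ccl5 differed by -0.88 (SE 0.51, adjusted p = 0.15; exact p = 0.89), with 5 of 9 libraries higher in phagocytes.

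In tubule cells all 5 members were higher on day 7 than in control, in a comparison that called 34.7% of 15745 genes (16.4% as higher). Ccl2, Ccl7 and Ccl8 had no UMI in control tubule cells; against 3 counts over the group, the rise was at least 1336-fold for Ccl2, 71.6-fold for Ccl7 and 15.4-fold for Ccl8 (edgeR adjusted p = 1.14e-05, 9.23e-05 and 0.0020). For Ccl12 the ratio was 87.0 (counting interval 15.1 to 3488, on 1 control UMI; adjusted p = 0.0016), and for Ccl5 it was 686 (392 to 1328; adjusted p = 9.98e-06). Tubule Ccl7, Ccl8 and Ccl12 rose while phagocytes went from 45 to 896 and 1438 cells, and the 3 phagocyte genes in tubule cells went from 0.0402% of their phagocyte level to 4.53% and 0.806%; the part of free RNA in the rise of these 3 was not tested. The control contrast borrows its spread from days 7, 11 and 14.

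From day 7 to day 11, tubule Ccl2 fell by 5.71 on the log2 scale (SE 0.31, adjusted p = 1.28e-05), Ccl5 by 7.30 (SE 0.31, adjusted p = 4.12e-06), Ccl7 by 4.04 (SE 0.47, adjusted p = 1.36e-04) and Ccl12 by 2.57 (SE 0.63, adjusted p = 0.0084). This comparison called 44.5% of genes, 22% as lower. Ccl8 in tubule cells differed by -0.34 (SE 0.55, adjusted p = 0.63). The Ccl12 call was lost without day 11 replicate 2 (adjusted p = 0.0748). From day 7 to day 14 all 5 fell (45.7% of genes called, 22.9% as lower): Ccl2 by 10.85, Ccl5 by 8.60, Ccl7 by 7.19, Ccl8 by 5.76 and Ccl12 by 5.08 (adjusted p of 8.27e-07 to 5.44e-04, edgeR). The day 14 tubule cells held 3 Ccl2, 2 Ccl7 and 1 Ccl8 UMIs, so the day 7 level was 2143 times the day 14 level for Ccl2 (counting interval 733 to 10398), 172 times for Ccl7 (46.9 to 1435) and 74.0 times for Ccl8 (12.4 to 3005). Between day 14 and control none of the 5 was called (adjusted p of 0.34 to 0.69; none had an unadjusted p under 0.05), where 6.39% of genes were. DESeq2 gave an adjusted p to Ccl2 (0.39) and Ccl5 (0.43) alone. Phagocytes went from 896 and 1438 cells on day 7 to 95 and 64 on day 11 and 38 and 50 on day 14. In tubule cells the 3 phagocyte genes went from 4.53% and 0.806% of their phagocyte level to 0.178% and 0.159%, then 0.0499% and 0.0902%. The part of free RNA in the fall of tubule Ccl7, Ccl8 and Ccl12 was not tested.

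In phagocytes the members' ends differed. All 5 were higher on day 7 than in control, where 3.4% of 3995 genes were called (1.5% as higher). Ccl2 rose by 2.85 on the log2 scale (SE 0.55, adjusted p = 0.0032) and Ccl12 by 3.08 (SE 0.76, adjusted p = 0.021), while for genes at 0 in control the rise was at least 8.18-fold (Ccl7), 12.0-fold (Ccl8) and 3.35-fold (Ccl5) (adjusted p = 4.91e-04, 0.042 and 0.012, edgeR). DESeq2 called Ccl2 and Ccl7 only (Ccl8 adjusted p = 0.24, Ccl12 0.066, Ccl5 0.145), the Ccl8 bound was 2.73-fold without day 7 replicate 2, Ccl12 was not called without that library (adjusted p = 0.069), nor Ccl8 when cells were not required to hold more phagocyte than tubule marker UMIs (adjusted p = 0.076), a setting that gave 3.59 for Ccl2 and 4.40 for Ccl12. The control side of this contrast is 1 library with 45 phagocytes.

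Over all phagocytes, Ccl2 did not pass the test for a change after day 7, where tubule Ccl2 fell. In phagocytes it differed by -0.01 between day 11 and day 7 (SE 0.29, adjusted p = 0.995) and by -0.12 between day 14 and day 7 (SE 0.30, adjusted p = 0.90). The make-up of the class shifted over these days: phagocytes with at least 3 C1q UMIs (C1q-high) were 709 of 896 and 1206 of 1438 on day 7, 83 of 95 and 56 of 64 on day 11, and 25 of 38 and 26 of 50 on day 14. In C1q-high cells Ccl2 stood at 771 and 887 CPM on day 7, 718 and 647 on day 11, and 1279 and 697 by day 14. In the C1q-low rest it stood at 477 and 432 CPM on day 7, then at 103 and 0 on day 11 and 0 and 68.4 by day 14, on 2 UMIs a day; the change within these subsets was not tested. Against control, phagocyte Ccl2 was still 2.73 higher on the log2 scale on day 14 (SE 0.58, adjusted p = 0.018), where 0.476% of genes were called (0.35% as higher). That call was lost without day 14 replicate 1 (adjusted p = 0.0885) and when cells were not required to hold more phagocyte than tubule marker UMIs (adjusted p = 0.75). For Ccl12 the differences from day 7 were 0.28 on day 11 (SE 0.38, adjusted p = 0.74) and -0.37 on day 14 (SE 0.41, adjusted p = 0.73).

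The change from day 7 was then compared between the 2 classes, in a model with library as a block. This comparison was added after the data were seen. For Ccl2 the phagocyte change lay above the tubule change by 5.60 on the log2 scale to day 11 (SE 0.33, adjusted p = 1.46e-59) and by 10.40 to day 14 (SE 0.47, adjusted p = 2.10e-103). For Ccl7 the differences were 3.70 (SE 0.49) and 4.71 (SE 0.85), and for Ccl12 2.81 (SE 0.48) and 4.43 (SE 0.59), all called by edgeR, against 4.97% and 7.26% of 14895 genes. In this fit edgeR used a spread shared across genes, with 3 residual degrees of freedom for each gene. Each of these 6 calls held in the fits that left out 1 library, but the values moved. For Ccl12 to day 11 they ran from 1.70 (adjusted p = 0.0447, without day 7 replicate 1) to 4.24 (without day 7 replicate 2), and to day 14 from 3.34 (without day 7 replicate 1) to 5.89 (without day 7 replicate 2). For Ccl2 they ran from 5.48 to 5.79 and, to day 14, from 9.01 (without day 14 replicate 1) to 10.44. For Ccl7 they ran from 3.19 (without day 11 replicate 2) to 4.52 (without day 11 replicate 1) and, to day 14, from 3.74 (without day 14 replicate 1) to 5.13. The day 14 ranges are over 5 fits: without day 14 replicate 2 the tubule cells of day 14 held 0 UMIs of all 3 genes, so the fitted value is no estimate. With it they held 3 UMIs of Ccl2, 2 of Ccl7 and 4 of Ccl12, and the day 14 values rest on these counts. Each SE in these fits is the absolute log2 value over the square root of the F statistic. With so few counts it can fall short of the counting error. For tubule Ccl2 the ratio of day 7 to day 14 had a counting interval of 733 to 10398. For Ccl5 the differences of 3.96 (SE 1.09, adjusted p = 0.0087) and 5.05 (SE 1.63, adjusted p = 0.031) were lost in 2 and in 4 of those fits. The 3 phagocyte genes in tubule cells also fell, from 4.53% and 0.806% of their phagocyte level on day 7. They stood at 0.178% and 0.159% on day 11, then at 0.0499% and 0.0902% by day 14. The part of free RNA in the Ccl7 and Ccl12 differences was not tested.

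Ccl7, a further Ccr2 ligand, was held mostly by phagocytes on every injured day. In phagocytes it stood at 0 in control (3 counts would be 48.6 CPM), 1223 CPM on day 1, 1749 on day 2, 877 on day 4, 311 and 489 on day 7, 254 and 300 on day 11, then 104 and 78.3 by day 14. Phagocytes held 54.0% of its UMIs on day 1, 92.7% on day 2, 84.6% on day 4, 84.5% ± 4.28 on day 7 and 84.2% ± 0.632 by day 11 (SD, n = 2). Its level in tubule cells was 16.2 CPM or less throughout. Between day 7 and day 14 it fell in phagocytes by 2.08 on the log2 scale (SE 0.43, adjusted p = 0.0039), in a comparison that called 4.48% of genes (1.23% as lower), and the change to day 11 was -0.22 (SE 0.31, adjusted p = 0.75). Without the comparison with tubule UMIs in the gate, the change to day 14 was -3.01. The 2 day 14 libraries together held 11 Ccl7 UMIs in phagocytes, 6 of them in 1 cell, and the call was lost without day 14 replicate 2 (adjusted p = 0.13).

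Stromal cells, the fibroblasts and pericytes of the interstitium, held 95.4 CPM of Ccl7 (17 UMIs) and 112 CPM of Ccl2 (20 UMIs) in day 7 replicate 2. These were 19.5% and 13.6% of the phagocyte levels, where the 3 phagocyte genes reached 1.17%. In the other day 7 library stromal Ccl7 was 18.8 CPM on 1 UMI. Over 7 libraries stromal Ccl7 did not pass the test against tubule cells (1.18, SE 0.56, adjusted p = 0.10), in a comparison that called 32.9% of genes (21.5% as lower). Ccl2 was lower in stromal than in tubule cells by edgeR (-1.31, SE 0.35, adjusted p = 0.0017) but not by DESeq2 (adjusted p = 0.73), without day 4 (adjusted p = 0.098) or by the exact test (p = 0.19), whereas Ccl5 was lower by both tests (-2.44, SE 0.34, adjusted p = 3.46e-09; lower in 7 of 7 libraries, exact p = 0.0156). Endothelial cells differed from tubule cells by -1.81 for Ccl2 (SE 0.46, adjusted p = 0.0036; exact p = 0.0625; DESeq2 adjusted p = 0.13), where 60.7% of genes were called (33.2% as lower).

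Ccl12, the mouse Ccr2 ligand with no direct human counterpart, was held almost wholly by phagocytes. It stood at 81.1 CPM in control phagocytes (5 UMIs), 911 on day 1, 2456 on day 2, 845 on day 4, 364 and 1117 on day 7, 669 and 799 on day 11, then 355 and 692 by day 14. Phagocytes held 71.3% of its UMIs on day 1, 95.3% on day 2, 93.9% on day 4, 92.8% ± 5.77 on day 7, 91.2% ± 3.42 on day 11 and 96.5% ± 4.96 by day 14 (SD, n = 2). Tubule cells held 9.01 CPM at most. The 2 day 7 libraries lay further apart than days 7 and 11 did on average.

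Ccl8 came last. Its UMIs numbered 0 in control, 1 on day 1, 24 on day 2, 206 on day 4, 235 and 2713 on day 7, 251 and 61 on day 11, then 0 and 1 by day 14. In phagocytes it stood at 0 on day 1, 18.6 CPM on day 2, 127 on day 4, 151 and 852 on day 7, then 1606 and 436 by day 11, with 0 in both day 14 libraries (3 counts would be 62.7 and 39.2 CPM). It thus rose after Ccl2, Ccl7 and Ccl12 had passed their day 2 levels, and the 2 libraries of a day differed several-fold. The fall from day 7 to day 14 was at least 24.7-fold (adjusted p = 0.0027, edgeR), though DESeq2 did not call it (adjusted p = 0.0535). That bound was 5.63-fold without day 7 replicate 2, the library with 852 CPM, and 14.8-fold and 9.87-fold without day 14 replicate 1 or 2. The change from day 7 to day 11 was 1.32 (SE 0.52, adjusted p = 0.15); it was called without day 7 replicate 2 (3.12) or without day 11 replicate 2 (1.96, adjusted p = 0.025). In that comparison 5.63% of genes were called (1.28% as lower), and of the members Ccl5 alone in the fit with all libraries.

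Few phagocytes carried Ccl8. After thinning to 500 UMIs, 2.68% had it on day 4, 4.24% and 14.2% on day 7, then 15.8% and 7.81% by day 11. The highest cell held 177 UMIs, in day 7 replicate 2, and there the top 10% of phagocytes held 89.6% of the Ccl8 UMIs.

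Phagocytes were split by C1q transcripts, the complement subunits that mark resident and maturing macrophages: C1q-high cells had at least 3 UMIs of C1qa, C1qb and C1qc. Ccl7 was higher in C1q-high than in C1q-low cells by 1.12 on the log2 scale (SE 0.23, adjusted p = 0.0017) and Ccl12 by 1.55 (SE 0.15, adjusted p = 1.8e-08; edgeR, 5.75% of 5182 genes called, 2.89% as higher). When cells were not required to hold more phagocyte than tubule marker UMIs, these values came to 3.58 and 4.05 and that of Ccl2 to 2.50 (adjusted p = 0.0025), and genes called went from 298 to 2357. Ccl7 and Ccl12 were higher in 6 of 6 libraries (exact sign-flip p = 0.0312, the smallest that 6 libraries allow). Ccl2 differed by 0.53 (SE 0.18, adjusted p = 0.08), higher in 5 of 6 libraries, and was called without day 1 (0.72, adjusted p = 0.0014). Its CPM in C1q-high and C1q-low cells was 2767 and 3642 on day 1, 5186 and 4229 on day 2, 2443 and 1762 on day 4, with 771 and 477 then 887 and 432 in the 2 day 7 libraries. Day 1 was the only library with more Ccl2 in the C1q-low cells.

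Ccl8 fell under the filter in this comparison. On day 7 its CPM was 181 in C1q-high against 8.16 in C1q-low cells of replicate 1, and 983 against 63.3 in replicate 2; on day 4 it was 185 against 62.7, and on day 2 12 against 22.1. Over the 6 libraries the exact test gave p = 0.25, with 2 libraries at 0 in both groups of cells. On day 7, C1q-high cells were also the deeper ones, with medians of 1339 and 1750.5 UMIs against 1097 and 1594.

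**Figure D4:**
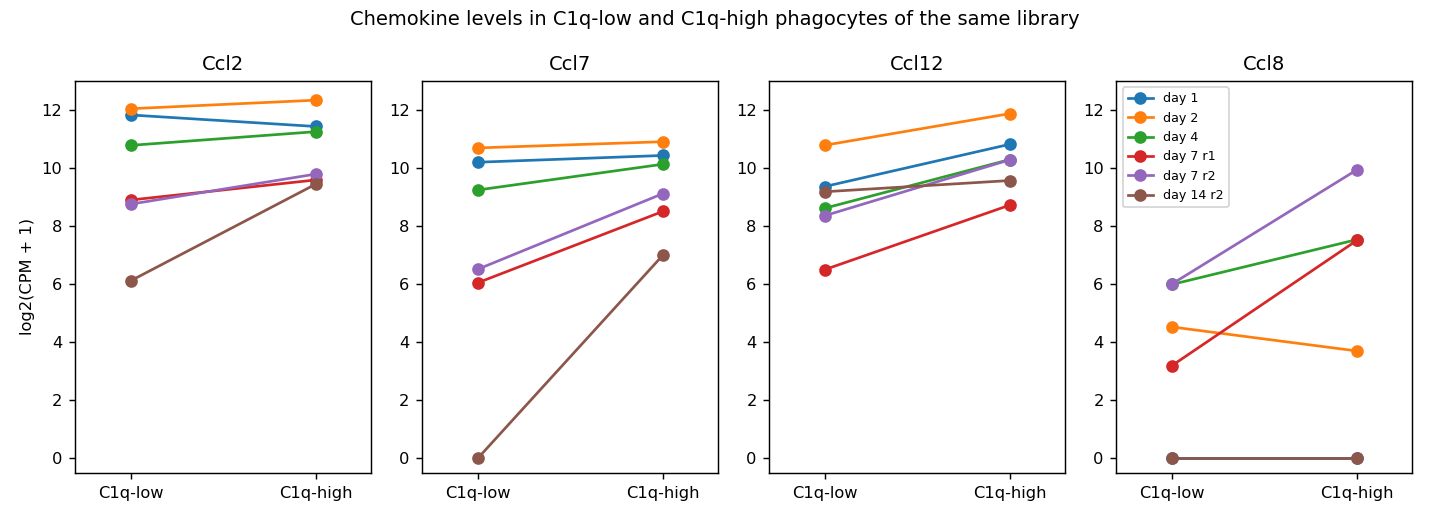
Level of 4 chemokines as log2(CPM + 1) (y axis) in C1q-low and C1q-high phagocytes (x axis) of the same library; each line joins the 2 summed values of 1 of the 6 libraries with at least 20 cells in both. Ccl7 and Ccl12 rise from left to right in 6 of 6 libraries and Ccl2 in 5 of 6; day 1 and day 14 replicate 2 lie at 0 on both sides for Ccl8.

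Within single phagocytes Ccl2, Ccl7 and Ccl12 were found together. After thinning to 500 UMIs, 50.8% of phagocytes with Ccl2 also had Ccl7 on day 2, against 9.48% of the others. The shares were 37.0% against 9.26% on day 4, and 28.4% against 7.41% and 33.4% against 9.24% on day 7. For Ccl12 they were 57.6% against 14.7% on day 2, 34.3% against 11.3% on day 4, and 29.9% against 9.40% and 47.5% against 21.7% on day 7. For Ccl8 the shares were 4.64% against 4.13% and 17.7% against 13% on day 7, and 41.7% against 12.0% and 37.5% against 3.57% on day 11, on 12 and 8 phagocytes with Ccl2. Cells of 1 library share their source, so these shares are given with no test.

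Ccl5 had 2 main sources whose shares changed order. Its UMIs numbered 220 in control, 385 on day 1, 582 on day 2, 13886 on day 4, 3322 and 10944 on day 7, 57 and 56 on day 11, then 165 and 132 by day 14. T and NK cells held 83.6% in control (95% exact interval 78.1 to 88.3), 47.3% on day 1, beside 36.6% in tubule cells, and 66.3% on day 2 (62.3 to 70.2). On day 1 the level was 21.0 CPM in tubule cells and 4711 in T and NK cells. The part of free RNA from T and NK cells in the tubule share was not tested on any day. On day 4 tubule cells held 76.7% (76.0 to 77.4) and T and NK cells 2.78% (2.51 to 3.07). On day 7 tubule cells held 48.7% ± 13 and T and NK cells 15.5% ± 4.47 (SD, n = 2), with 17.7% and 35.5% in mixed cells. On day 11, no class led in both libraries: tubule cells held 47.4% and 23.2%, T and NK cells 26.3% and 26.8%, and ungated cells 8.77% and 39.3%. By day 14 T and NK cells again held the larger share, 66.5% ± 10.9 (n = 2).

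T and NK cells carried Ccl5 at a high level on most days, and the tubule only around days 4 and 7. In T and NK cells it stood at 5798 CPM in control, 4711 on day 1, 6697 on day 2, 5414 on day 4, 4543 and 4773 on day 7, 810 and 742 on day 11 (11 and 17 cells), and 3135 and 7839 on day 14 (27 and 9 cells). In tubule cells it stood at 0.505 CPM in control, 21.0 on day 1, 7.16 on day 2, 737 on day 4, 577 and 629 on day 7, 3.03 and 1.46 on day 11, then 1.03 and 0.740 by day 14. The 3 tubule values of days 4 and 7 lie far above the 7 others, none of which is above the 21.0 CPM of day 1. Over 6 libraries T and NK cells exceeded tubule cells by 5.64 on the log2 scale (SE 0.29, adjusted p = 2.53e-81, edgeR). This comparison called 43.8% of genes, 12.4% as higher. Ccl5 was higher in T and NK cells in 6 of 6 libraries (exact sign-flip p = 0.0312, the smallest that 6 allow). The edgeR test pools its spread across genes, so its p-value can fall far below that limit. Ccl2 went the other way in T and NK cells by edgeR (-2.19, SE 0.38, adjusted p = 6.02e-08; 31.3% of genes called as lower) but not by DESeq2 (adjusted p = 0.31).

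After thinning to 500 UMIs, Ccl5 was found in 15.3% of tubule cells on day 4 and in 12.5% and 10.7% on day 7, with up to 478 UMIs in a cell. In T and NK cells the share was 42.3% in control, 54.8% on day 1, 73.7% on day 2, 70.9% on day 4, and 56.8% and 60.7% on day 7. In phagocytes it was 5.61% on day 4 and 7.59% and 6.75% on day 7. Phagocyte Ccl5 was 112 CPM on day 4 and 190 and 172 on day 7, which is 15.2%, 32.9% and 27.3% of the tubule level. Transcripts of tubule origin in the same phagocytes reached 9.72%, 11.3% and 2.89% of their tubule level for Kap, 12.5%, 10.2% and 4.86% for Clu and 80.0%, 44.7% and 32.9% for Spp1, which macrophages can also make. Phagocyte Ccl5 lay above Kap and Clu and below Spp1 in all 3 libraries, and the part of tubule RNA in its rise and in its later fall was not tested. That fall was 3.17 on the log2 scale to day 11 (SE 0.56, adjusted p = 5.21e-04) and 3.37 to day 14 (SE 0.70, adjusted p = 0.0038; lost by DESeq2, adjusted p = 0.079, and without day 14 replicate 2, adjusted p = 0.14). Without the comparison with tubule UMIs in the gate, these changes were -4.93 and -6.41. On day 14 phagocytes held 2 Ccl5 UMIs, and the ratio of day 7 to day 14 was 10.4 (counting interval 2.86 to 85.7).

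Tubule cells with injury transcripts held most of the tubule Ccl2 and Ccl5 of days 4 and 7. On day 4, Ccl2 stood at 733 CPM in tubule cells with a UMI of Havcr1, the kidney injury molecule of the proximal tubule, and at 70.6 in those without. In the 2 day 7 libraries the values were 609 against 62.2 and 826 against 65.5. Split by Vcam1, an adhesion molecule of injured tubule cells that bind leukocytes, Ccl2 stood at 950 against 88.2 CPM on day 4, and at 745 against 75.9 and 964 against 46.7 on day 7. For Ccl5 the Vcam1 split gave 1527 against 194 on day 4, and 1577 against 196 and 1843 against 123 on day 7. By Havcr1, Ccl5 stood at 1110 against 269 on day 4, and at 1290 against 171 and 1526 against 187 on day 7. In all 3 libraries both genes were several-fold higher in the positive cells.

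Over 7 libraries, Vcam1-positive cells held more Ccl2 by 3.44 on the log2 scale (SE 0.54, adjusted p = 3.47e-04, edgeR; 21.1% of 11755 genes called, 8.42% as higher), in 7 of 7 (exact sign-flip p = 0.0156, the smallest that 7 allow). Ccl5 was 2.60 higher (SE 0.36, adjusted p = 1.08e-04; 6 of 7, exact p = 0.0312). Ccl12 went the other way, by -1.05 (SE 0.31, adjusted p = 0.026; lower in 7 of 7, exact p = 0.0156), a call lost by DESeq2 (adjusted p = 0.11), without day 2 (0.103) and under a gate of 5 UMIs from 3 genes (0.0614); 12.7% of genes were called as lower. Lower too was Ccr2 (-0.92, SE 0.20, adjusted p = 0.0037), a receptor of monocytes. Vcam1-positive cells were also deeper, with medians of 2539 against 1617 UMIs on day 4 and 1632 against 1199 and 2596 against 1780 on day 7; after thinning, 18.8% against 5.93% had Ccl2 on day 4, and 17.1% against 4.49% and 22.7% against 2.52% on day 7.

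The Vcam1 split still held on day 11, when tubule Ccl2 was 3.82 and 2.69 CPM. The 34 Vcam1-positive tubule cells of replicate 1 held 22 of the 34 tubule UMIs, and the 24 of replicate 2 held 12 of 24. These levels were 236 and 234 CPM, against 1.36 and 1.35 in the cells without Vcam1.

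The Havcr1 split was less even over time. Over 9 libraries Ccl2 was 2.47 higher (SE 0.49, adjusted p = 0.0015) and Ccl5 1.87 higher (SE 0.41, adjusted p = 0.0032; edgeR, 19% of genes called, 7.92% as higher). By the exact test neither passed (p = 0.078 and 0.082), with 5 and 6 of 9 libraries higher. On day 1, when 1147 of 2647 tubule cells had a Havcr1 UMI, Ccl2 was lower in them, at 23.6 against 53.2 CPM.

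By segment, tubule Ccl2 and Ccl5 of days 4 and 7 came mostly from the proximal tubule and from tubule cells whose segment could not be set. Proximal cells held 530 CPM of Ccl2 on day 4 and 447 and 694 on day 7, and cells of no set segment 540, 367 and 355. Thick limb cells held 39, 28.6 and 9.53 CPM, and collecting duct cells 41.3, 57.8 and 9.22. For Ccl5 the proximal values were 887, 880 and 1328, and those of the thick limb 159, 112 and 32.9. In each of the 3 libraries proximal cells held at least several times the level of the thick limb, distal and collecting duct cells. On day 1 the order differed for Ccl5, with 104 CPM in distal cells (16 UMIs) and 29.1 in thick limb cells. Proximal cells then held 16.2 CPM and collecting duct cells 6.65. After thinning, 29.1% of tubule cells with Ccl2 also had Ccl5 on day 4, against 13.8% of the others, and 34.9% against 10.7% and 40.1% against 8.32% on day 7.

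**Figure D5:**
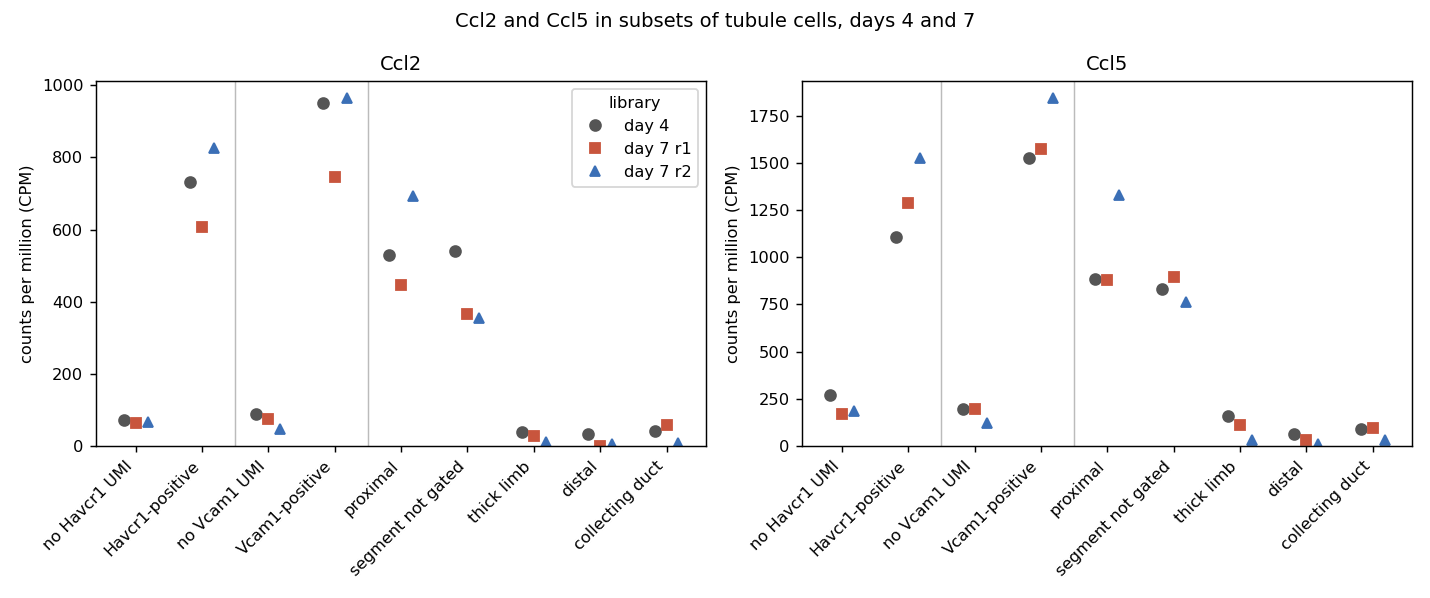
Levels of Ccl2 (left) and Ccl5 (right) in CPM (y axis, linear from 0) in tubule cells split by Havcr1, by Vcam1 and by segment (x axis), in the day 4 library and the 2 day 7 libraries; each point is 1 summed value with no error bar. Cells with Havcr1 or Vcam1 and proximal cells stand high in all 3 libraries, and thick limb, distal and collecting duct cells low.

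In phagocytes Ccr2, the receptor of Ccl2, Ccl7 and Ccl12, stood at 535 CPM in control, 2056 on day 1, 1163 on day 2, 1477 on day 4, 1670 and 1769 on day 7, 1198 and 790 on day 11, then 1232 and 1972 by day 14. In T and NK cells Ccr2 ranged from 80.0 to 808 CPM. Ccr8, the receptor of mouse Ccl8, was at 0 in phagocytes of all 10 libraries, where the limit that 3 counts set is as high as 62.7 CPM. Against tubule cells, Ccr2 was higher in phagocytes by 7.95 on the log2 scale (SE 0.66, adjusted p = 2.13e-08) and Ccr1 by 6.46 (SE 0.30, adjusted p = 8.24e-11), where the median over all genes was -0.14. Between day 7 and control, Ccr2 rose in phagocytes by 1.54 (SE 0.41, adjusted p = 0.035). Between day 14 and day 7, Ccr1 fell by 3.26 (SE 0.76, adjusted p = 0.010) and Ccrl2, an atypical receptor, rose by 1.18 (SE 0.34, adjusted p = 0.046). On day 14, C1q-high phagocytes held 0 and 2 Ccr1 UMIs and C1q-low phagocytes 0 and 0, and the Ccr1 value rests on these counts.

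Among the 20 genes listed as NF-kappaB and interferon inducers, products and brakes, 18 of 19 tested rose in tubule cells on day 7 against control (median 3.05 on the log2 scale, against 0.03 over all genes, of which 16.4% were called as higher). Relb, a subunit of noncanonical NF-kappaB, rose by 3.67 (SE 0.29, adjusted p = 3.69e-05), and Nfkbia, an inhibitor that NF-kappaB induces, by 2.60 (SE 0.23, adjusted p = 5.49e-05). Irf1, an interferon response factor, rose by 2.68 (SE 0.27, adjusted p = 1.07e-04); Ifit1 did not pass (3.99, SE 1.42, adjusted p = 0.054). The count holds Il1b (3.76, SE 0.60) and Tnf (5.81, SE 0.97), cytokines that were higher in phagocytes than in tubule cells, and the part of free phagocyte RNA in their rise was not tested. In Vcam1-positive tubule cells 12 of 19 were higher (median 0.65, against -0.04 over all genes, 8.42% of which were called as higher), among them Nfkbie (2.25, SE 0.24), Tnfaip3 (2.18, SE 0.28), Nfkbia (1.72, SE 0.15) and Relb (1.64, SE 0.17). From day 7 to day 11, 14 of 19 fell in tubule cells and Zfp36, which breaks down cytokine mRNA, rose (median -1.88, against -0.10 over all genes, 22% of which were called as lower). The rise of these genes in tubule cells ran with that of Ccl2 and Ccl5; no link between them was tested.

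Phagocytes gave another picture for the same list on day 7 against control. Of 14 tested, 4 fell, where 3.4% of all genes were called in either direction: Il1b by 4.22 (SE 0.32, adjusted p = 3.96e-09), Tnf by 2.15 (SE 0.61, adjusted p = 0.047), Nfkbiz by 1.73 (SE 0.33, adjusted p = 0.0032) and Zfp36 by 1.64 (SE 0.33, adjusted p = 0.0042). The list's median was -0.66, against 0.12 over all genes, with Ifit3, at 0 in control, at its fitted value. Il1b stood at 7216 CPM in the 45 control phagocytes and at 344 and 500 on day 7.

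Of the 15 other CC chemokines, those of phagocytes split by direction. On day 7 against control, where 3.4% of all genes were called, Ccl6 rose by 3.35 (SE 0.46, adjusted p = 3.67e-05) and Ccl9 by 2.97 (SE 0.74, adjusted p = 0.021), while Ccl4 fell by 2.78 (SE 0.33, adjusted p = 3.97e-06) and Ccl3 by 2.02 (SE 0.39, adjusted p = 0.0028), with 5 tested. On day 14 against day 7, where 4.48% of all genes were called, Ccl4 rose by 2.72 (SE 0.29), Ccl3 rose by 2.23 (SE 0.32) and Ccl6 fell by 2.27 (SE 0.31); Ccl9 did not pass (-0.83, SE 0.40, adjusted p = 0.32). In tubule cells, where 34.7% of all genes were called (16.4% as higher), 6 of 9 rose on day 7 and 2 fell, Ccl28 by 3.76 (SE 0.63, adjusted p = 0.0015) and Ccl27a by 1.64 (SE 0.22, adjusted p = 4.46e-04), both known as epithelial chemokines. Of the 6, Ccl6, Ccl9, Ccl3, Ccl4 and Ccl17 were higher in phagocytes than in tubule cells by the test between classes, as were the phagocyte genes given above.

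The genes whose levels ran most like each member over 38 sums of a class in a library (at least 50 cells, log2(CPM + 10), 9761 genes) were Cd44 (r = 0.916), Ctss (0.906) and Ctsc (0.904) for Ccl2, Ccr1 (0.949), Pf4 (0.943) and Pilra (0.942) for Ccl7, and Pilra (0.978), Fcgr1 (0.978) and Clec4a3 (0.972) for Ccl12. For Ccl8 they were Fcrls (0.898), Trem2 (0.855) and Arl5c (0.851), and for Ccl5 Il18r1 (0.889), Cd8a (0.839) and Rpl4 (0.814). Fcgr1, Fcrls and Cd8a are markers that set the classes. Between members, r was 0.942 for Ccl7 with Ccl12, 0.912 for Ccl2 with Ccl7 and 0.115 for Ccl12 with Ccl5. Sums of 1 library share its depth, so these are descriptions with no p.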

How the data were processed

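Drop-seq libraries of mouse kidney cortex (bead-bound cDNA, 3′ ends, a modified Nextera XT preparation, per the labels' protocols) were read as the UMI counts per gene and barcode that the authors deposited; mm10 and Bowtie2 2.2.7 are named in the submitters' processing notes, and other steps are not given in the sources used here. The deposited tables start at 300 genes per barcode in both day 11 libraries and at 500 in the others. Filters asked for 500 UMIs, 500 genes and no more than 50% mitochondrial UMIs (52797 cells passed), and the 5% with the highest Scrublet scores (Scanpy 1.11.5) were left out of each library, since its own threshold marked at most 0.111%.

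A non-tubular class needed at least 3 UMIs from 2 genes of its marker list, at least 2 times the UMIs of every other such list, and more UMIs than the tubule list; cells that met the first condition alone were called mixed. Tubule cells needed 3 UMIs from 2 tubule genes. Of 147 marker genes 143 were in the tables. Summed counts were tested with edgeR 4.0.16 (quasi-likelihood, Benjamini-Hochberg over all genes, threshold 0.05; DESeq2 1.42.0 as the alternative, R 4.3.3), with library as a block between classes of at least 20 cells; exact sign-flip tests used log2(CPM + 10) of each library (SciPy 1.17.1). On simulated counts with 4-fold changes, 92% of changed genes were recovered for tubule cells on day 7 against control (14430 genes). For phagocytes against tubule cells 98.5% were recovered (11050 genes). The changed genes had a mean of at least 20 counts, and 2.65% and 5.74% of the calls were false. Comparisons of days within phagocytes were not simulated. The SE beside an edgeR value is the absolute log2 value over the square root of the F statistic.

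Shares carry 95% exact (Clopper-Pearson) intervals, and a count of 0 is read against 3 counts; both cover counting error only. Shares of cells were thinned to 500 UMIs per cell. The 5 genes were named in every comparison, the other chemokine and inducer lists by count, receptors singly (the count over the receptor list is not reported here), and the 3 genes most alike each member by Pearson r. Members, lists and markers were chosen with earlier results of these data known. Alternatives changed the filter, the tool, the gates, the doublet and mitochondrial limits, the replicate block, and left out each library.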

Additional observations from a re-analysis of the deposited data

Results flagged for a closer look

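The change after day 7 differed between phagocytes and tubule cells for 4 of the 5 chemokines, by a test of the difference itself (edgeR, phagocyte minus tubule change, log2 scale); 4.97% of all genes were called to day 11 and 7.26% to day 14. To day 11 the difference was 5.60 for Ccl2, 3.70 for Ccl7, 2.81 for Ccl12 and 3.96 for Ccl5. To day 14 it was 10.4 for Ccl2, 4.71 for Ccl7, 4.43 for Ccl12 and 5.05 for Ccl5. A positive value says that the phagocyte change lay above the tubule change. This test was added after the data were seen. Ccl8 did not pass on either day (1.41, adjusted p = 0.079, and -9.25, adjusted p = 0.69). Day 14 phagocytes held 0 Ccl8 UMIs, so the fitted value of -9.25 is no estimate. The Ccl5 difference to day 11 was lost without day 11 replicate 1 (adjusted p = 0.59) or replicate 2 (0.0509). To day 14 it was lost without day 7 replicate 1 (0.0601) or replicate 2 (0.0555) and without day 14 replicate 1 (0.26) or replicate 2 (0.27). Day 14 phagocytes held 2 Ccl5 UMIs in both libraries together and day 11 phagocytes held 4. The part of free RNA in the Ccl7 and Ccl12 differences was not tested. To day 11, Ccl8 was called without day 7 replicate 2 (3.20, adjusted p = 0.0057), day 11 replicate 2 (1.95, 0.027), day 14 replicate 1 (0.038) or day 14 replicate 2 (0.031).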

How the results depend on the processing

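Of the alternative values for counts of members called and for shares on day 7, 216 came within 1.5 times the count or 1 SD of the share. The other 19 did not. The counts of members below show only how calls moved with the setting, and are not set against the share of all genes called. Counts over all genes that moved by over 1.5 times are given further below. In phagocytes, DESeq2 called 2 members on day 7 against control and 1 on day 14 against day 7. With 1 library left out, day 11 against day 7 gave 1 to 3 members, day 14 against day 7 gave 1 to 3, and day 14 against control 0 to 2. Day 14 against control gave 2 with no filter on low counts and 0 when tubule UMIs were not compared. Stromal cells against tubule gave 1 by DESeq2 and 1 to 2 with 1 library left out, endothelial cells 0 and T and NK cells 1 by DESeq2. C1q-high against C1q-low gave 4 with no filter and 2 to 4 with 1 library left out; with tubule UMIs not compared, Ccl2 came to 2.50, Ccl7 to 3.58 and Ccl12 to 4.05. On day 7 the tubule share of Ccl2 was 43.4% under a gate of 5 UMIs from 3 genes, and with tubule UMIs not compared the phagocyte share of Ccl2 was 59.0% and of Ccl5 26.0%.

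Values that changed sign were all uncalled with all libraries in. The first was tubule Ccl12 on day 14 against control without day 14 replicate 2 (-2.49). The day 14 tubule cells then held no Ccl12 UMI, so that value is no estimate. In phagocytes on day 11 against day 7, Ccl2 changed sign without day 7 replicate 2 (0.12), without day 11 replicate 2 (0.03) and under the gate of 5 UMIs (0.052). There Ccl7 did so without day 7 replicate 2 (0.18) and Ccl12 without day 7 replicate 1 (-0.33). On day 14 against day 7 they were Ccl2 without day 7 replicate 2 (0.03) or day 14 replicate 2 (0.31) and Ccl12 without day 7 replicate 2 (0.74) or day 14 replicate 1 (0.02). Ccl5 between phagocytes and tubule cells came to 0.20 by DESeq2 and 0.021 with tubule UMIs not compared, Ccl7 in stromal cells to -0.0030 without day 7 replicate 2, and in T and NK cells to 0.24 by DESeq2. Ccl5 by C1q came to -0.29 without day 7 replicate 2, -0.0076 without day 1 and -0.031 under the gate of 5 UMIs. With 1 library left out in turn these values ranged from -2.49, which is no estimate, to 2.15 for tubule Ccl12. In phagocytes on day 11 they ranged from -0.15 to 0.12 for Ccl2, -0.55 to 0.18 for Ccl7 and -0.33 to 1.36 for Ccl12. On day 14 they ranged from -0.61 to 0.31 for Ccl2 and -1.03 to 0.74 for Ccl12. They ranged up to 1.43 for stromal Ccl7 and 0.45 for Ccl5 by C1q. The cause was not tested.

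With the replicate number as a block over days 7, 11 and 14, Ccl8 in phagocytes on day 14 against day 7 was lost (edgeR adjusted p = 0.057). No other member call in the changes from day 7 was altered in tubule cells or phagocytes. Libraries with the same number did not deviate together (r of -0.083 to 0.27), so the numbers were not taken as pairs.

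Counts over all genes moved by over 1.5 times as follows. Tubule day 11 against day 7 went from 7012 to 4403 without day 11 replicate 2. Tubule day 14 against control went from 1006 to 2190 with no filter and to 80 to 2257 with 1 library left out. Phagocytes on day 7 against control went from 136 to 458 with tubule UMIs not compared. On day 11 against day 7 they went from 225 to 55 in that setting, to 134 without day 7 replicate 1 and to 91 without day 11 replicate 2. On day 14 against day 7 they went from 179 to 331 and, without day 14 replicate 2, to 60. On day 14 against control they went from 19 to 0 in that setting, 44 with no filter, 47 by DESeq2, 34 with doublets kept, 30 with at most 25% mitochondrial UMIs, and 29 to 73 with 1 library left out. With tubule UMIs not compared, phagocytes against tubule went from 6584 to 4172, T and NK cells from 4555 to 2747 and C1q-high against C1q-low from 298 to 2357. C1q fell to 152 without day 4 and 186 without day 7 replicate 2, and the Vcam1 comparison went from 2481 to 1467 without day 4.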

Other observations

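Ccl20, a ligand of Ccr6 and no member of the 5, was an early tubule transcript. It stood at 0 CPM in control tubule cells, 123 on day 1, 11.8 on day 2, 64.4 on day 4, 54.6 and 25.1 on day 7, then 0.674 and 1.57 by day 11. Its highest level was thus on day 1, where tubule Ccl2 was 38.1 CPM. Ccl28 ran the other way, at 84.1 CPM in control, 3.13 on day 1, 5.16 on day 2, 28.4 on day 4, 3.30 and 16.3 on day 7, then 71.4 and 31.4 by day 14.

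In phagocytes Ccl4, which draws monocytes and T cells, was below its control level in the libraries of days 1 to 11: 3567 CPM in control, 296 on day 1, 986 on day 2, 582 on day 4, 518 and 619 on day 7, 1177 and 1933 on day 11, then 3446 and 3552 by day 14. The day 2 library had high interferon response transcripts in several classes, with Isg15 at 825 CPM in tubule cells, 1910 in phagocytes and 1423 in T and NK cells. In day 7 replicate 2 the only gated B cell held 17 Ccl5 UMIs.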
